A study of Caenorhabditis elegans with 3 samples.

Results

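The rps genes of Caenorhabditis elegans encode the proteins of the small ribosomal subunit, and the deposited LIN-15B peaks were read at their promoters. Members were the protein-coding genes with a symbol of rps and a number in Ensembl release 115, which gave 31 genes, rps-0 to rps-30, of 19973 protein-coding genes. A further 46 rpl genes encode proteins of the large subunit and served for comparison. The small subunit has a head and a body that together hold the decoding centre, where the codon of the messenger RNA is read. LIN-15B belongs to the synMuv B genes, whose products are chromatin regulators known for keeping germline genes off in the soma of the larva. Ribosomal protein genes are among the most highly transcribed genes of growing cells, and in this species many lie in short intergenic stretches or in operons.

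The samples were 3 biological replicates of chromatin immunoprecipitation with sequencing (ChIP-seq) from whole, mixed-sex L1 larvae, the first larval stage. All 3 came from strain OP184, genotype unc-119(tm4063) III; wgIs184, in which the insertion wgIs184 carries lin-15B fused to eGFP. The transgene and the unc-119 allele were thus common to all samples, no untagged or mutant group was analysed here, and nothing could be compared between conditions. Worms for replicates 1 and 2 were obtained from a strain collection, and their chromatin was cut to 150 to 350 bp. Those for replicate 3 were the laboratory's own, and the labels give microtip sonication and GFP-FLAG at the C-terminus. The antibody label names LIN-15B and the descriptions name the eGFP fusion, so which of them the antibody bound is not settled. Whole larvae mix all tissues, so the cells in which a peak arises cannot be told.

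Each replicate has its own peak list and a series-wide list joins all 3, each of 30000 peaks on build ce11. The label of the series-wide list names both peaks and background, so a listed peak, above all a low-ranked one, may be background. Shares of genes with any listed peak count such entries too. Within a list, peaks were ranked by the strength that the authors' caller gave, rank 1 being the strongest. Peak lists hold no read counts, so the depth behind a rank is unknown. A peak was given to a gene where its summit, the point of highest signal, lay from 1000 bp upstream to 200 bp downstream of a transcript start. The irreproducible discovery rate (IDR) models how well the ranks of a pair of lists match. A series-wide peak with an IDR of 0.05 or less in all 3 pairs of replicates is called a consistent peak. There were 927 consistent peaks, of which 826 lay in the window of a protein-coding gene.

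The 61 bp around the series-wide summit are shown for 8 of the 12 consistent rps peaks with the best mean rank. The other 4, those of rps-19, rps-20, rps-15 and rps-26, all lie on 1 chromosome from which no sequence is printed. They are the stretches of highest signal upstream of those genes. Each reads 5′ to 3′ on the strand of the rps gene, from the RefSeq genome on WBcel235, which is the assembly of ce11. Capitals mark GAGCGC or its reverse complement GCGCTC, a 6-base sequence searched on both strands. The stretches and strands are rps-12 (chrIII:5679100-5679160, plus), rps-27 (chrV:104661-104721, minus), rps-4 (chrIV:7084931-7084991, minus), rps-28 (chrIV:1659214-1659274, plus), rps-22 (chrIII:1950386-1950446, plus), rps-23 (chrIV:12391315-12391375, minus), rps-1 (chrIII:4475623-4475683, plus) and rps-0 (chrIII:4754332-4754392, minus).
rps-12: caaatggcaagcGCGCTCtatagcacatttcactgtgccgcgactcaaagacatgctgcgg
rps-27: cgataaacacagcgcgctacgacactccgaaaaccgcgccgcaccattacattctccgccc
rps-4: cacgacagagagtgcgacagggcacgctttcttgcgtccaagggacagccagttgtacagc
rps-28: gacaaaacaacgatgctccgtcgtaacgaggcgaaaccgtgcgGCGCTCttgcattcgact
rps-22: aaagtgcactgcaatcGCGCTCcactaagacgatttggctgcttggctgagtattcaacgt
rps-23: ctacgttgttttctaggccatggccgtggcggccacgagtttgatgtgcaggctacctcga
rps-1: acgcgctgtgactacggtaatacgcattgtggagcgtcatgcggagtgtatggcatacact
rps-0: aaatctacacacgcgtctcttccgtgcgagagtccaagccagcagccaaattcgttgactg
The 6-base sequence stands in the printed stretches of rps-12, rps-28 and rps-22 and in none of the other 5. Over all 21 consistent rps peaks, in wider windows, it was present at 4.

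A LIN-15B peak was listed upstream of nearly every rps gene, and most of these peaks were strong. A series-wide peak lay in the window of 30 of 31 rps genes (96.8%), against 42 of 46 rpl genes and 45.8% of all protein-coding genes. A consistent peak lay in the window of 21 rps genes (67.7%), against 33 rpl genes (71.7%) and 6.19% of all protein-coding genes. Among the 1000 strongest series-wide peaks, 23 rps genes had one in their window, against 6.88% of all genes. The same held in each replicate: 20 rps genes in replicate 1, where 5.85% of all genes had one, 22 in replicate 2, where 6.52% had one, and 23 in replicate 3, where 7.09% had one. Over the replicates the rps share was 69.9% ± 4.93, the rpl share 75.4% ± 7.63 and the share of all genes 6.49% ± 0.622 (SD, n = 3). The rpl share was the higher in each replicate, at 67.4%, 76.1% and 82.6% in replicates 1, 2 and 3, against 64.5%, 71.0% and 74.2% for rps genes. Both stood far above the share of all genes in every replicate. No test was run of any of these differences. In every replicate 19 of the 31 rps genes were in the top 1000, against 873 of the 19973 protein-coding genes. In no replicate were 6 rps genes, against 18197 of all genes. The counts rest on the reach of the window: from 250 bp upstream to 100 bp downstream, 5 rps genes and 702 of all genes had a consistent peak. With each peak given only to its nearest transcript start, the numbers were 10 and 816.

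**Figure D1:**
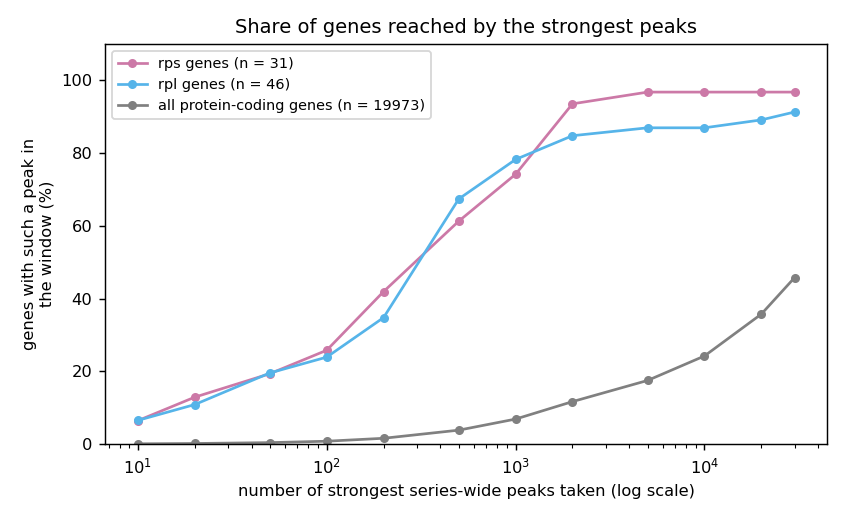
Cumulative share of rps, rpl and all protein-coding genes (percent) with a series-wide peak in the window among the strongest peaks, against the number of strongest peaks on a log axis. At 2000 peaks the share is 93.5% of rps genes, 84.8% of rpl genes and 11.7% of all genes.

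The rps peaks stood near the top of the lists. The median series-wide rank of a gene's strongest window peak was 308 over the 30 rps genes with one, from 4 to 3333, against 303 over rpl genes and 8912 over all genes. In replicate 1 the rps median was 244 (27 genes), against 11208 over all genes. It was 381 in replicate 2 (31 genes), against 9149, and 301.5 in replicate 3 (30 genes), against 8021. Each list put the middle rps gene within its 1000 strongest peaks. The 21 consistent rps peaks had a median mean rank over replicates of 167, against 513 over the 826 consistent window peaks.

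**Figure D2:**
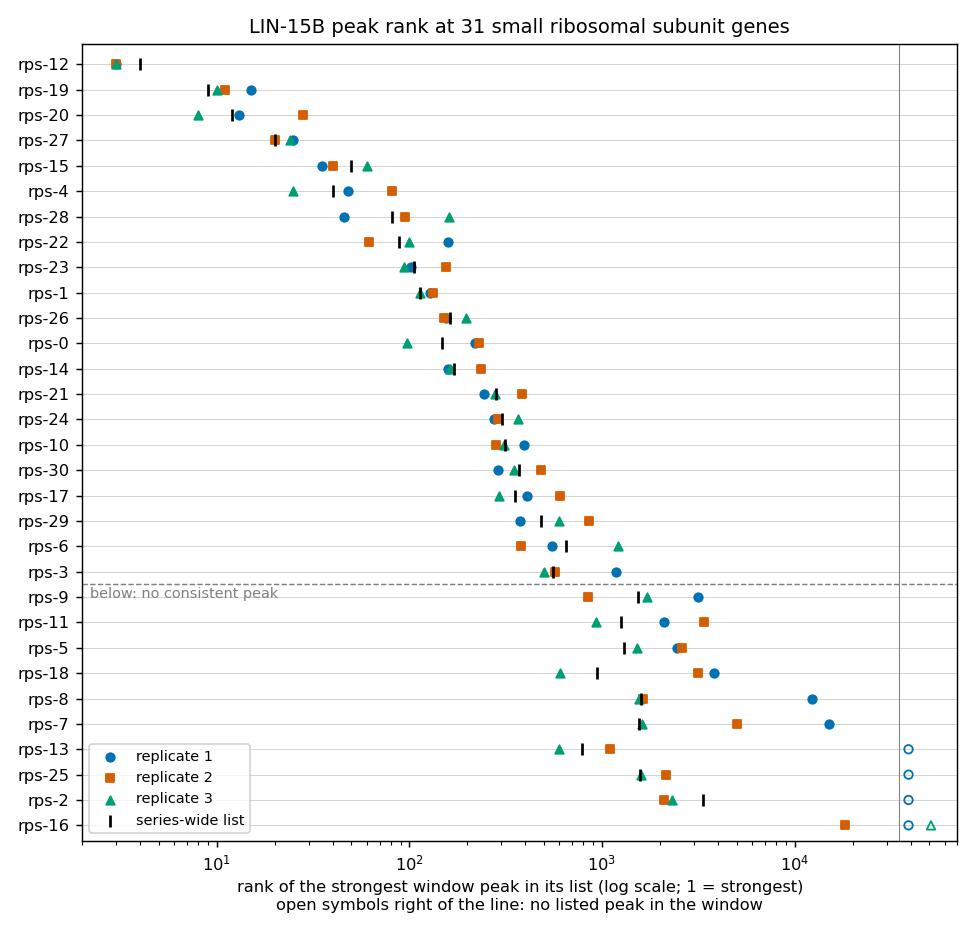
Rank of each rps gene's strongest window peak in replicates 1, 2 and 3 and in the series-wide list (log axis, rank 1 strongest), by gene. Genes with a consistent peak run from rank 3 to 1209 across replicates, and those without one from 596 to 18149. Open symbols at the right edge mark lists with no peak in the window.

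By position in the subunit, a consistent peak was present at 9 of 13 genes of the head and 12 of 18 of the body. The mean rank of those peaks had a median of 101 in the head, from 3 to 749, and of 175 in the body, from 23 to 714, so the 2 ranges overlapped almost whole.

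The strongest rps peak of all lay upstream of rps-12 (WBGene00004481), a gene of the head. On chromosome III, where rps-12 runs from 5679298 to 5680187, its summit at 5679130 had rank 3 in replicates 1, 2 and 3 and rank 4 series-wide. It lay 168 bp upstream of rps-12 and 125 bp upstream of ska-3, a gene of a kinetochore complex that runs the other way.

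Other head genes followed. The peak of rps-19, whose human counterpart is needed to process ribosomal RNA, had ranks 15, 11 and 10 in replicates 1, 2 and 3, a mean of 12 ± 2.65 (SD, n = 3). Its summit, chromosome I position 9626079, lay 283 bp upstream of rps-19 and 162 bp upstream of hsr-9. The peak of rps-20 had ranks 13, 28 and 8, a mean of 16.3 ± 10.4, and its summit at 14469345 of chromosome I lay 242 bp upstream of rps-20 and 155 bp upstream of ekl-4. All 3 of these leading head genes were in the 30 strongest peaks of every replicate. The peak of rps-15 ranked 35, 40 and 60 at position 8816582 of chromosome I, 389 bp upstream of rps-15 and 392 bp upstream of F36A2.9. That of rps-28 ranked 46, 95 and 161 with its summit at 1659244 of chromosome IV, 447 bp upstream of rps-28. The last of these spread most, with a mean rank of 101 ± 57.7, and its second gene was Y41D4B.4, with the summit 866 bp upstream. Y41D4B.4 is not the divergent neighbour of rps-28, which is nhr-274, 14392 bp away.

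Among body genes rps-27 came first, with ranks 25, 20 and 24, a mean of 23 ± 2.65. Its summit at 104691 of chromosome V lay 614 bp upstream of rps-27 and 134 bp upstream of picd-1. This was the farthest of the consistent rps summits from its rps gene. The peak of rps-4 ranked 48, 81 and 25 with its summit at 7084961 of chromosome IV, 279 bp upstream of rps-4, with no other protein-coding gene in reach. The peak of rps-22 ranked 158, 62 and 100 at 1950416 of chromosome III, 119 bp upstream of rps-22 and 147 bp upstream of polh-1, which encodes DNA polymerase eta. The 3 lists thus placed rps-27 alike and differed more for rps-4 and rps-22.

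The next body gene was rps-23, which encodes a protein of the decoding centre. Its peak ranked 102, 154 and 94 at 12391345 of chromosome IV, 292 bp upstream of rps-23 and 242 bp upstream of dpm-3. The peak of rps-1 ranked 128, 132 and 113 at 4475653 of chromosome III, 265 bp upstream of rps-1 and 503 bp upstream of ifet-1, a translational repressor. With a mean rank of 124 ± 10.02, it was placed almost alike by the 3 replicates. The peak of rps-26 ranked 154, 152 and 196 at 14759530 of chromosome I, 400 bp upstream of rps-26 and 57 bp upstream of tmem-107. The peak of rps-0 ranked 220, 230 and 97 at 4754362 of chromosome III, 311 bp upstream of rps-0 and 62 bp upstream of rbg-3. For both of these the other gene's start was much the nearer.

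The remaining 9 consistent peaks were those of rps-3, rps-6, rps-10, rps-14, rps-17, rps-21, rps-24, rps-29 and rps-30. Their series-wide ranks ran from 170 at rps-14 to 647 at rps-6, and their summits lay between 235 bp and 489 bp upstream. Of these, 3 were shared with a gene of the large subunit that runs the other way. The peak of rps-14 ranked 159, 235 and 162 and lay 267 bp upstream of rps-14, 396 bp upstream of rpl-36 and 897 bp upstream of ndab-2. That of rps-10 ranked 395, 283 and 311, 344 bp upstream of rps-10 and 266 bp upstream of rpl-24.1. The peak of rps-30 ranked 289, 484 and 347, 235 bp upstream of rps-30, 264 bp upstream of rpl-39 and 957 bp upstream of C26F1.3. At these promoters 1 summit lay in the window of a gene of each subunit, and no consistent peak was shared by 2 rps genes.

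Each of the 10 rps genes without a consistent peak had a listed peak in at least 1 replicate. For 9 of them the series-wide list had one, ranked from 784 at rps-13 to 3333 at rps-2, with the summit from 176 bp upstream at rps-13 to 499 bp upstream at rps-18. The peak of rps-13, a body gene, was strong in 2 lists, with ranks 1105 and 596 in replicates 2 and 3 (IDR 0.000842 for that pair), and replicate 1 listed none. Its summit also lay 206 bp upstream of nfx-1. Likewise rps-2 had ranks 2091 and 2315 in replicates 2 and 3, and rps-25 had 2159 and 1588, with no window peak in replicate 1 for either. In replicate 1 the peaks of rps-7 and rps-8 ranked 15117 and 12311. In replicate 2 they ranked 4992 and 1635, and in replicate 3 they ranked 1608 and 1551. For these 5 genes replicate 1 gave the weakest rank or no peak. Replicate 1 had a window peak at the fewest rps genes, 27, against 31 and 30 in replicates 2 and 3. Over all protein-coding genes it also had the fewest, 8421, against 8792 and 8997.

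The peak of rps-5 ranked 2462, 2591 and 1512 in replicates 1, 2 and 3, and its IDR of 0.0739 for replicates 1 and 2 was above the threshold. The peak of rps-11 ranked 2101, 3399 and 927, with an IDR of 0.117 for the same pair. That of rps-9, the only rps gene on chromosome II, ranked 3150, 847 and 1706, with IDRs of 0.0946 and 0.0536 for replicates 1 and 2 and replicates 1 and 3, and it was shared with lsm-1, a gene of mRNA decay. The peak of rps-18, which ranked 3804, 3163 and 607, had its summit 499 bp upstream, inside an exon of sec-61.A, which encodes a subunit of the protein translocon. All 4 had a listed peak in every replicate, with the best rank in replicate 2 for rps-9 and in replicate 3 for the others. Without replicate 1, 8 further rps genes had a consistent peak (rps-2, rps-5, rps-8, rps-9, rps-11, rps-13, rps-18 and rps-25), giving 29 of 31, while the share of all protein-coding genes was 10.9%.

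The head gene rps-16 (WBGene00004485) stood apart from the rest: it had no series-wide peak and had a window peak only in replicate 2, at rank 18149. On chromosome V its neighbour fib-1, which encodes the rRNA methyltransferase fibrillarin, lies 109 bp upstream on the same strand. A strong consistent peak, shared with mut-15, lay upstream of fib-1, with ranks 74, 68 and 77 in replicates 1, 2 and 3. That summit, at 15002292, was 69 bp upstream of fib-1 and 1751 bp upstream of rps-16, outside the window of rps-16. Whether fib-1 and rps-16 are transcribed together was not examined.

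The summits lay within a narrow range of distances from the rps starts. The median distance of the 21 consistent summits was 302 bp upstream, with quartiles of 265 and 344 bp and a range of 119 to 614 bp. Measured from each replicate's own summits, the median was 294, 293 and 281 bp, a mean of 289 ± 7.23 bp (SD, n = 3). Of the 21, 16 (76.2%) were between 200 and 400 bp upstream, 2 were nearer and 3 were farther, and none was downstream. The rpl median was 291 bp with 69.7% in that range, while the 1183 other genes with a consistent peak had a median of 213 bp with 30.1% in it. Among those others 44.2% lay within 200 bp upstream and 2.70% downstream. The 3 replicate summits of an rps peak spread over a median of 16 bp, from 0 to 36 bp, against 24 bp over all consistent window peaks.

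**Figure D3:**
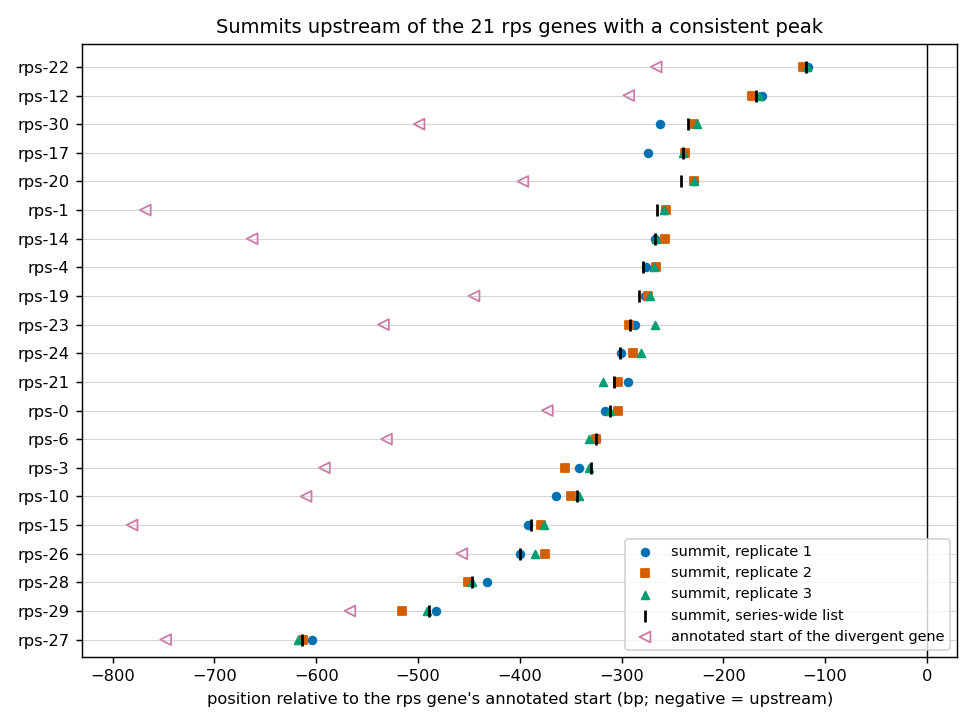
Signed distance (bp) of the consistent summit from the start of each of the 21 rps genes, per replicate and series-wide, with the annotated start of the divergent gene. Replicate summits lie close together, and the summits sit from 119 to 614 bp upstream of the rps start.

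The 4 consistent rps peaks not shared with another protein-coding gene (rps-4, rps-17, rps-21 and rps-24) had a median distance of 290.5 bp upstream. The 17 shared ones had a median of 311 bp, and the difference was not tested. The 10 rps genes that were nearest to their own peak had a median of 273 bp, against 167 bp for the 797 other genes nearest to theirs. Measured to the coding start, the median was 316 bp for rps genes, 304 bp for rpl genes and 254 bp for the others.

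**Figure D4:**
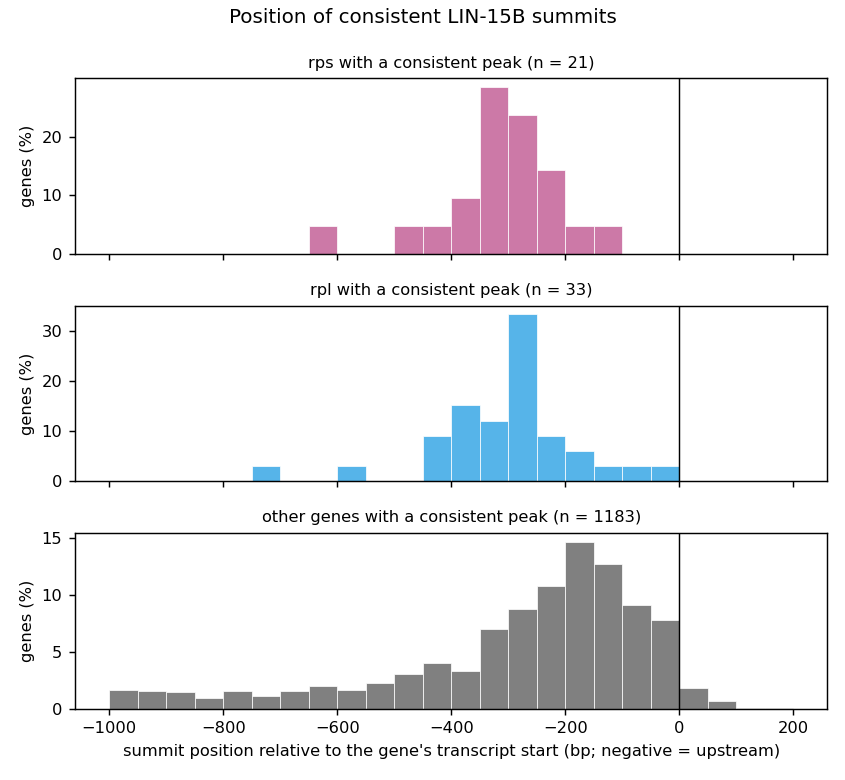
Share of genes with a consistent peak (percent) by distance of the summit from the gene's start (bp), for rps genes, rpl genes and all other genes. A shared peak counts for each of its genes. The rps and rpl summits gather between 200 and 400 bp upstream, with 76.2% and 69.7% of genes there, against 30.1% of the others.

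Most rps peaks lay between divergent genes, and the neighbour's start was often the nearer one. The consistent peak was shared with another protein-coding gene at 17 of 21 rps genes (81.0%), at 23 of 33 rpl genes and at 66.3% of all genes with one. Among the 17 is rps-28, which has no divergent start within 1000 bp. In 11 of the 21 cases the other gene's start was nearer to the summit, against 13 of 33 for rpl genes and 426 of 1237 for all genes. All 21 summits were intergenic, and no such share over all consistent peaks is given here to read this against. Of the 19 rps genes with a divergent start within 1000 bp, 16 had a consistent peak (84.2%), against 5 of the 12 without such a neighbour (41.7%). For rpl genes the shares were 81.5% and 57.9%, and for all genes 19.5% and 3.15%. In the top 1000 of the replicates the share was 86.0% ± 6.08 of rps genes with the neighbour, and 44.4% ± 4.81 of those without one (SD, n = 3). The direction was the same in every replicate, at 15, 17 and 17 of 19 against 5, 5 and 6 of 12. A peak in such a stretch counts for both genes by construction, so which gene it belongs to cannot be told apart, and the difference was not tested.

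**Figure D5:**
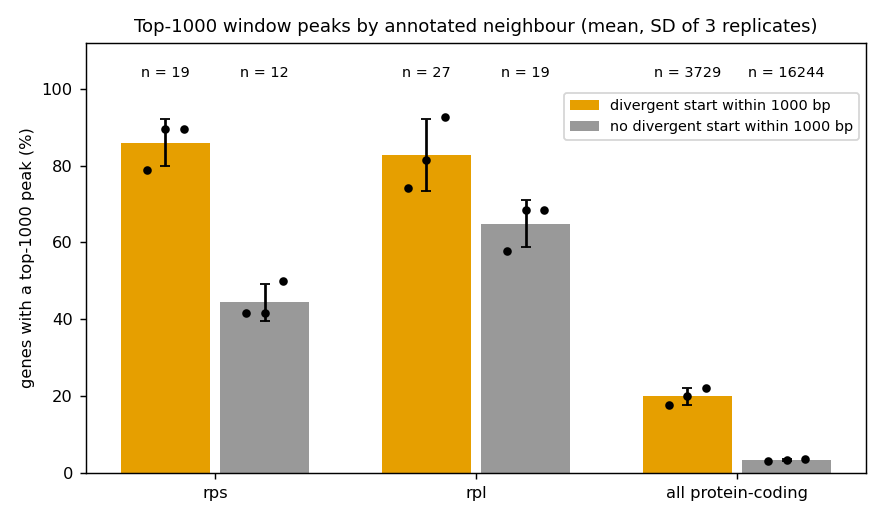
Share of rps, rpl and all protein-coding genes (percent) with a window peak among the 1000 strongest of each replicate, for genes with and without a divergent start within 1000 bp. For rps genes the mean share is 86.0% with the neighbour and 44.4% without it.

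The nearest upstream neighbour, at any distance, largely recounts the same genes. It was divergent at 22 rps genes, 18 of which had a consistent peak (81.8%), against 10.07% of the 9071 protein-coding genes with a divergent neighbour. Of these 22, rps-5, rps-24 and rps-28 have that neighbour 1895, 2701 and 14392 bp away. It was tandem, on the same strand, at 9 rps genes, of which 3 had one (33.3%: rps-4, rps-17 and rps-21), against 2.97% of the 10897 genes with a tandem neighbour. The 6 tandem genes without one were rps-2, rps-7, rps-8, rps-11, rps-16 and rps-25. By chromosome, a consistent peak was present at 7 of 8 rps genes on I, 8 of 9 on III, 4 of 10 on IV, 2 of 3 on V and 0 of 1 on II, and no rps gene lies on X. The shares of all genes were 9.80%, 11.3%, 6.49%, 3.50% and 5.97% on those chromosomes in the same order.

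GC content at the rps summits lay near that of consistent peaks in general. In windows of 201 bp, the GC content was 42.4% ± 3.51 over the 21 rps summits, against 41.6% ± 6.65 over all 826 (SD over peaks). It was 41.5% ± 1.94 at the 9 rps genes with only a peak that was not consistent. At a fixed 224 bp upstream, the median distance of consistent summits over all genes, these 21 rps genes had 36.3% ± 6.62 and all genes 34.3% ± 6.53 (SD over windows). The 21 were picked for having a consistent peak and all genes were not, and the rps median distance is 302 bp. The observed over expected CpG ratio was 1.498 ± 0.318 at rps summits and 1.47 ± 0.389 at all consistent summits. At the fixed distance it was 1.59 ± 0.454 for the rps genes and 1.05 ± 0.469 for all genes. These differences were not tested.

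Sequence motifs, searched on both strands in the same 201 bp, were present in smaller shares of rps peaks than of all consistent peaks, in differences that were not tested. GAGCGC was present at 4 of 21 (19.05%: rps-12, rps-15, rps-22 and rps-28), against 32.2% of all consistent summits. At the fixed 224 bp it was present at 2 of the 21 rps promoters (9.52%) and 3.77% of all promoters. Here and for the motifs below, the 21 were picked for a consistent peak and all promoters were not. In the 4 summit windows it lay within 30 bp of the summit, at a median of 15.5 bp. An E2F-like motif, which is TTCCCGC or its variant TTCGCGC, or else TTGCCGC or its variant TTGGCGC, was present at 3 (14.3%), against 25.8% of all consistent summits, and at the fixed distance at 2 rps promoters (9.52%) and 7.01% of all promoters. GAGAGA was present at 3 (14.3%), against 29.4% of all consistent summits, and at the fixed distance at 3 rps promoters (14.3%) and 13.6% of all promoters. At the 9 rps summits that were not consistent, GAGAGA was present at 6, an E2F-like motif at 1 and GAGCGC at 0. No share over all summits that were not consistent is given here, so these 9 windows have no matched background. A match is a description of letters and not of a binding site.

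In the other genes of the ribosome and of its assembly, a consistent peak is to be read against the 6.19% of all protein-coding genes that had one. Of the other small subunit genes, ubl-1, which encodes a ubiquitin-like fusion with a ribosomal protein, had a consistent peak at ranks 86, 106 and 58. The scaffold gene rack-1 had none, with no peak in replicate 1 and ranks 1070 and 1484 in replicates 2 and 3. None of the 3 rla genes, which encode the stalk proteins of the large subunit, had one. Of 13 assembly and control genes, 4 had a consistent peak: fib-1, larp-1, riok-1 and pro-1 (30.8%). Apart from fib-1, the strongest of these was larp-1, with ranks 217, 266 and 349, in a peak shared with wip-1. The series-wide list held no peak for pro-2, pro-3 and riok-3.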

How the data were processed

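ChIP-seq peak lists of the 3 replicates and of the series were used on ce11, and lists on ce10 were not used. The records deposited beside them name a control file for each, and all 3 replicate alignments for the series-wide list, which is thus not independent of the replicates. Which aligner and caller made them is not given in the sources used here, and read depth is unknown. Peak strength is a signal value on the scale of the authors' caller. The authors' q column was treated as a score and not used. Every deposited list held 30000 peaks.

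IDR was fitted to ranks of series-wide peaks matched to the strongest overlapping replicate peak (1 bp or more), with ties in seeded random order. The fit was run on data simulated from its own model and fitted values, which cannot show how well that model suits these lists. Python 3.11.15, numpy 2.4.6, scipy 1.17.1 and pandas 2.3.3 were used, with genes from Ensembl release 115 and sequence from the RefSeq genome. The 12 mitochondrial protein-coding genes were left out. There is 1 group, so no groups were compared.

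The members and gene lists were chosen with earlier results of these data known, GAGCGC included. The named genes were the 12 consistent rps genes with the best mean rank, all without a consistent peak and those sharing one with a ribosomal gene. Neighbour, coding-start, non-coding RNA, gene-body and fib-1 values, with those over all genes or peaks beside them, were added after seeing the data. Alternatives were the IDR threshold, matching, window, ranks used, replicates left out and window of composition.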

Additional observations from a re-analysis of the deposited data

How the results depend on the processing

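The count of 21 rps genes with a consistent peak moved by more than 1.5 times only where the window was 250 bp upstream to 100 bp downstream, with 5 rps genes and 702 protein-coding genes, or where a peak went to its nearest transcript start alone, with 10 and 816. In the same 2 settings, the rps genes sharing their peak numbered 3 and 6, the rps genes in the series-wide top 1000 were 6 and 11, the mean rps share in the replicates' top 1000 was 15.1% and 34.4%, and the median rps summit lay at -235 and -273 bp. For these values no share over all genes is given here in the same settings. The median was -292 bp with the top 1000 of every replicate and no model. The mean rps share was 60.2% among the top 500 peaks, 79.6% among the top 2000 and 64.5% with 500 bp upstream. The share of all genes changed with the cut-off too. In the series-wide list it was 3.84% at the top 500 and 11.7% at the top 2000. Leaving out each replicate gave 1310 to 2183 protein-coding genes and 21 to 29 rps genes with a consistent peak. With 50 bp either side, GC content was 50.9%, the CpG ratio 1.36 and GAGAGA was at 1 rps summit (4.76%), against 17.7% of all consistent summits. At a common distance, GC content was 36.3%, the CpG ratio 1.59 and GAGCGC was at 2 (9.52%), against 3.77% of all promoters. The rps genes here were picked for a consistent peak, and all promoters were not. Of 73 alternative values over 11 results, 50 stayed within their limits and 23 moved beyond them. No paired analysis was possible because there is 1 group. The depth of the lists is unknown, so what it limits cannot be stated.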

Other observations

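Starts of non-coding RNA genes lay close to several rps summits. Such a start was within 100 bp of the summit at 5 of the 21 consistent rps peaks (23.8%), those of rps-0, rps-1, rps-6, rps-10 and rps-30. Among all 826 consistent window peaks the share was 8.11%, and among all 30000 series-wide peaks it was 2.45%. The wider window, 1000 bp upstream to 200 bp downstream of the non-coding start itself, held the summit of 10 rps peaks (47.6%). The shares were 15.3% of all consistent window peaks and 11.7% of all series-wide peaks. For small nucleolar RNAs, the class that guides modification of ribosomal RNA, it held 5 (23.8%), against 3.15% and 0.763%. These summits were not close to the small nucleolar RNA starts, at -118 bp for rps-26 to -931 bp for rps-29 (negative is upstream). For tRNAs it held 0 of the 21, against 0.363% and 1.10%. These differences were not tested. Series-wide summits also lay inside the gene beyond the window at 5 of 31 rps genes (16.1%), namely rps-1, rps-3, rps-18, rps-20 and rps-27, against 42.6% of all protein-coding genes. The rps genes are shorter, with a median length of 756 bp against 2027 bp over all genes.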
